A study of Homo sapiens with 6 samples.

Results

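The peaks of the acetylated histone mark H3K27ac on chromosome 21 were described in SU-CCS-1, an established human cell line of clear cell sarcoma (CCS). The series held 3 H3K27ac ChIP samples and 3 input samples, and all 6 came from this line with the genotype EWSR1::ATF1 and no treatment named, so no group without the fusion was compared. The members were all peaks on chromosome 21 (hg38) in the merged peak list analysed here, which made 478 of 30784 peaks. The list gave the position of each peak with no height, read count or value per replicate, so neither the spread between replicates nor the depth behind a peak could be given. Of 7 melanocyte and neural crest genes that mark CCS, 6 had a peak within 3 kb of an annotated start (SOX10, MITF, PMEL, MLANA, S100B and DCT), and TYR had none, where 63.4% of all coding genes had one.

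H3K27ac is placed by acetyltransferases such as p300 on nucleosomes around active promoters and enhancers. Long runs of acetylated elements close to one another often lie at genes that define a cell type or respond to its main signal. The EWSR1::ATF1 (EA1) fusion keeps the DNA-binding domain of ATF1, which recognizes the cyclic AMP response element TGACGTCA as a dimer. Chromosome 21 is a small chromosome whose short arm carries ribosomal genes and repeats. Its long arm runs from a gene-poor part near the centromere to a gene-rich end.

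The presence of a call chose the members, and all widths and regions below came from those same calls, so they are given as descriptions with no test. Shares carry 95% Wilson intervals that cover counting error only. Coordinates are hg38, counted from 1.

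The sequences under the peaks that hold TGACGTCA are shown first, because some sit in promoters or domains that the later paragraphs describe. The regions at URB1 and COL18A1, described below, held no TGACGTCA in their peaks. Of the 478 peaks, 16 held TGACGTCA, which reads the same on both strands (3.35%, interval 2.07 to 5.37%), against 2.58% of all peaks in the genome. TGACGTCA is in capitals, each stretch has 30 bases on the plus strand, and the name gives the nearest coding start outside the short arm.
BACE2 intron, chr21:41228154-41228183: tcaaagtgcccTGACGTCAtatggggggaa
BACE2 coding exon, chr21:41237529-41237558: tccaagggcttTGACGTCAcagtgaagtac
SLC37A1 coding exon, chr21:42534725-42534754: tgggatgaagcTGACGTCAggttcagcagc
ZBTB21 first exon, chr21:42010343-42010372: catcttgaattTGACGTCAtcccacaccag
RCAN1 start, chr21:34526985-34527014: ctggaaagaggTGACGTCAacaccttagtc
HMGN1 start, chr21:39348655-39348684: gcccggccgcgTGACGTCAcggcttcccgc
RRP1 start, chr21:43789510-43789539: gtcgcgggctgTGACGTCAcgccacgcgcc
SIK1 distal element, chr21:43442059-43442088: acaggcctgagTGACGTCAgagacaggtat
short-arm copy of that element, chr21:6096182-6096211: atacctgtctcTGACGTCActcaggcctgt
The matches at RCAN1, HMGN1 and RRP1 lay 0.033, 0.043 and 0.008 kb from an annotated start. For RCAN1 and HMGN1 that start was internal to the gene and not its main start. RCAN1 encodes an inhibitor of the phosphatase calcineurin, HMGN1 a nucleosome-binding protein and RRP1 a factor of ribosomal RNA processing. Those in BACE2 lay inside peaks of 9.8 and 19.2 kb, and the one in SLC37A1, a sugar phosphate transporter, inside a peak of 7.41 kb. Other matches lay at BTG3, SETD4, SPATC1L and the start of SIK1, in the block beside CRYAA, and in the short-arm copies of the SIK1 and CRYAA matches.

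The SIK1 gene is induced by cyclic AMP signalling and encodes a kinase of the salt-inducible family that restrains the coactivators of CREB. Its peak at chr21:43425811-43428160 covered the start and 1 TGACGTCA. The 300 bases before the start (chr21:43427132-43427431, minus strand) are shown with TGACGTCA and each shorter match to TGACG, on either strand, in capitals.
SIK1 upstream: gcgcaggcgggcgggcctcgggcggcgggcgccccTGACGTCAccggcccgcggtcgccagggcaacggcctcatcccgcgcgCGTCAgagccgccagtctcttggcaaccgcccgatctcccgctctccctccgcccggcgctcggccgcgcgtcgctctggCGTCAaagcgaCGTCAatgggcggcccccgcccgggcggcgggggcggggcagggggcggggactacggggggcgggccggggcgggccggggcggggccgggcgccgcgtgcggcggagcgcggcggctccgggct
The stretch held 5 matches to TGACG on either strand, of which 2 formed the TGACGTCA, and its GC content was 83.3%. The same 300 bases occurred without a difference at chr21:6110831-6111130 on the short arm. Among RefSeq promoters (GRCh38.p14, 250 bases before to 50 after a start), 6 of 485 on chromosome 21 held TGACGTCA (1.24%, 0.568 to 2.67%), against 1.84% of 34943 in the genome. A peak overlapped 5 of those 6, at BTG3-AS1, RCAN1, ZBTB21, RRP1 and an uncharacterized locus inside SLC37A1, and not LINC00111. TGACG on either strand stood in 22.9% of these promoters on the chromosome and in 24.5% of all.

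Other response element sequences were counted in whole peaks on both strands. TGAGTCA, the site of AP-1 factors, stood in 19.7% of the chromosome's peaks (16.35 to 23.5%) and in 16.8% of all peaks. TGANNTCA, which takes in TGACGTCA, stood in 43.1% (38.7 to 47.6%) and 40.8%. Runs of 5 or more TGA or TCA triplets with at most 5 bases between neighbours stood in 9.0% (6.75 to 11.9%) and 6.74%. Only the interval for runs left out the share of all peaks, by a narrow margin. Among distal peaks, those with no base within 3 kb of a start, TGAGTCA stood in 17.1% on the chromosome (12.6 to 22.8%) and 17.5% in the genome. TGANNTCA stood in 39.5% (33.2 to 46.3%) and 45.6%, and runs in 7.62% (4.74 to 12.02%) and 8.15%. Each of these distal intervals holds the genome share, so no order was shown. For TGACGTCA the distal share on the chromosome was 1.90% (0.743 to 4.79%) against 0.981%, and its interval also holds the genome share. The share of 1.90% rested on 4 of 210 peaks, and all but the match in SLC37A1 lay in the copied blocks described further on. The match beside CRYAA was counted again in its short-arm copy. Runs of 7 or more triplets from 4 of the domains described further on are shown, with the triplets in capitals.
BACE2 intron, chr21:41235857-41235895: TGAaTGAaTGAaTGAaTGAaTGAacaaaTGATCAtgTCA
beyond CHAF1B, chr21:36420338-36420372: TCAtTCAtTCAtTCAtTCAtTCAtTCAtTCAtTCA
PDXK intron, chr21:43730096-43730129: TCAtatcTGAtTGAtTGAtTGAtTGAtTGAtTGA
MORC3 coding exon, chr21:36369078-36369103: TGATGATGATGATGAagatgTCATCA
These runs held 9, 9, 8 and 7 triplets. A match is a sequence of letters and not a bound site, and wider peaks hold more letters.

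Chromosome 21 had few peaks, and a larger share of them was wide than on any other chromosome. Its 478 peaks gave 11.9 peaks per Mb outside assembly gaps, the seventh highest value of 24 chromosomes, where the median chromosome had 10.4. They covered 849 kb, or 2.12% of the sequence, against a median of 1.53%. Median width was 1040 bases (quartiles 652.5 and 1870), beside 1060 for all peaks. Peaks wider than 5 kb made up 24 of 478 on chromosome 21 (5.02%, 3.40 to 7.36%) and 622 of 30306 on the other chromosomes (2.05%, 1.90 to 2.22%), where the share over the whole list was 2.1%. This was the highest share of the 24 chromosomes, ahead of 4.43% on chromosome 22. Above 10 kb stood 7 peaks, or 1.46% (0.711 to 2.99%), beside 0.30% (0.245 to 0.368%) elsewhere. The 24 peaks held 28.5% of all bases in peaks on chromosome 21, whereas peaks of that width held 11.2% over the whole list. The members closest to the 5 kb limit measured 5010 bases inside it and 4870 outside it.

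Peaks were then stitched where the gap between them did not exceed the stitching distance of the study, the default of the ROSE program, and the stitched regions of the whole genome were ranked by summed peak width. The slope-1 point lay at 7.97 kb. It is the place on that ranking, with rank and width both rescaled to run from 0 to 1, where the curve turns steeper than the diagonal. Chromosome 21 had 222 regions, of which 133 held a single peak. Past the point lay 23 of them (10.4%, 7.0 to 15.1%), beside 856 of 16827 on the other chromosomes (5.09%, 4.77 to 5.43%) and a share of 5.16% over all regions. This share was also the highest of the 24, ahead of 8.23% on chromosome 16. Ranking by span in place of summed width placed the chromosome second, with 22 regions or 9.91%. The 23 regions held 170 peaks and 53.7% of the chromosome's bases in peaks. Their median had 7 peaks, a span of 28.9 kb and 59.7% of that span filled, against 6 peaks, 27.1 kb and 47.5% for all regions past the point. The last region inside summed to 8.67 kb, at ZBTB21, and the first outside to 7.8 kb, at SETD4 and CBR1. Without the first 13 Mb, an alternative chosen after seeing the data because 47 of the 51 peaks there have another copy on the chromosome, the shares were 5.15% for wide peaks and 11% for regions.

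**Figure D1:**
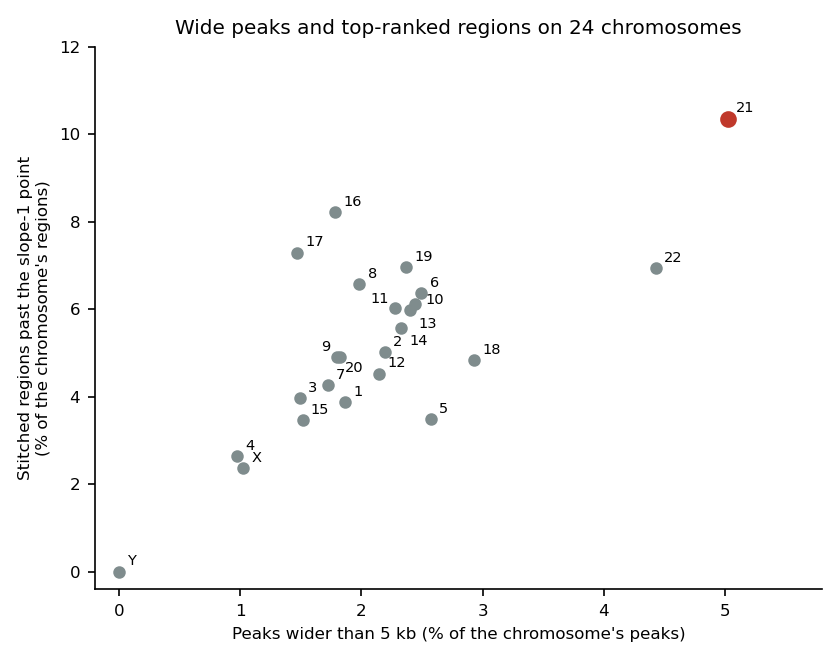
Share of peaks wider than 5 kb (x axis, percent of a chromosome's peaks) against share of stitched regions past the slope-1 point (y axis, percent of its regions) for 24 chromosomes, each a labelled point. Chromosome 21, in red, lies highest on both axes at 5.02% and 10.4%, with chromosome 22 nearest on the x axis at 4.43% and chromosome 16 nearest on the y axis at 8.23%.

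Peaks were spread unevenly along the chromosome. The first 13 Mb, with 6.44 Mb of known sequence, held 51 peaks. From 13 to 31 Mb, the gene-poor part of the long arm, 62 peaks gave 3.44 per Mb. From 31 to 36 Mb there were 15.6 per Mb, and from 36 Mb to the end 287 of the 478 peaks gave 26.9 per Mb. Of the 23 regions past the point, 17 lay in that last segment and 1 lay between 13 and 31 Mb. Coding genes were also denser there, at 10.7 per Mb against 3.5 per Mb between 13 and 31 Mb. The 1-Mb window with most bases in peaks (43 to 44 Mb) held 54 peaks, 122 kb in peaks and 5 of the regions, and the window with most peaks (36 to 37 Mb) held 66.

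**Figure D2:**
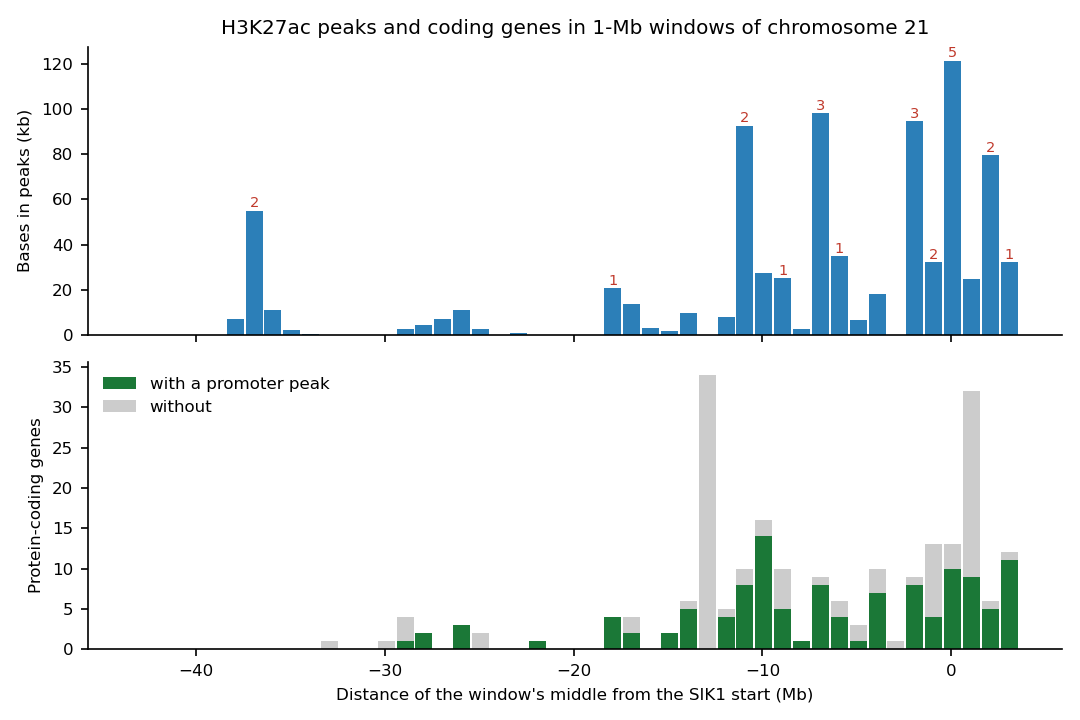
H3K27ac peaks (top, kb of peaks per 1-Mb window, with the number of regions past the slope-1 point in red) and protein-coding genes (bottom, with a promoter peak in green and without in grey) by distance in Mb from the SIK1 start. The tallest window, at SIK1, holds 122 kb and 5 regions, and the window with 34 genes, none with a promoter peak, is the larger keratin-associated cluster.

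Stretches without a peak were long. The longest, chr21:20998711-25606910, ran for 4608 kb across most of NCAM2, which encodes a neural adhesion molecule. The next, chr21:18751991-20997820, ran for 2246 kb and touched no coding gene. The third, chr21:39453781-41108400, ran for 1655 kb across B3GALT5, IGSF5, SH3BGR, PCP4 and the neural adhesion gene DSCAM, and ended before BACE2. The fourth, chr21:29541171-31127410, ran for 1586 kb across most of the glutamate receptor gene GRIK1, CLDN8, CLDN17 and 33 keratin-associated protein genes, and it took in parts of BACH1 and TIAM1. The fifth, chr21:27586421-28884810, covered 1298 kb up to N6AMT1. A stretch without a call was below the cutoff of the peak caller, which does not show that it lacked acetylation.

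The largest domain of the chromosome lay at URB1, a gene for ribosome assembly. The region at chr21:32305861-32393840 ranked 4 of 17049 in the genome, with 18 peaks, 63.9 kb of summed width and 72.6% of its 88.0 kb span filled. A pair of neighbouring peaks made up most of it, at chr21:32330591-32354720 (24.1 kb, ranked 4 of all peaks by width) and chr21:32354961-32373530 (18.6 kb, ranked 9). Both lay in the body of URB1, the first over an internal start. At the main start of URB1 stood a peak of 2.7 kb. In all, peaks covered 73.8% of the 82.0 kb gene, and most of these bases lay away from the main start. The region also reached the 3′ end of MRAP, which encodes the accessory protein of the receptor for the pituitary hormone ACTH. MRAP had 3 peaks with 4.25 kb on its body and no peak within 3 kb of its starts. Next to it on the chromosome, EVA1C began a region of 4 peaks and 13.3 kb, and the pair spanned 124 kb with 62.4% filled.

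BACE2 had the second domain. It encodes a transmembrane protease that in melanocytes cuts PMEL, the scaffold protein of pigment granules. Peaks filled 47.0% of its 114.7 kb, in 2 regions. The first, chr21:41166851-41180190, covered the start with a peak of 9.99 kb and a neighbour of 3.13 kb, and 98.4% of its span was filled. The second, chr21:41207651-41255800, ranked 18 in the genome with 9 peaks and 41.7 kb, and its widest peak, chr21:41236551-41255800, was the sixth widest of all 30784. That peak covered internal starts and the coding exon with TGACGTCA shown above. The 9.99 kb peak also covered MIR3197, the 1 microRNA gene of 26 matched on the chromosome by mature sequence that lay in a peak. Its mature sequence (RefSeq, GRCh38.p14) follows with the seed, bases 2 to 8, in capitals.
hsa-miR-3197, chr21:41167564-41167586, plus strand: gGAGGCGCaggcucggaaaggcg
The mature sequences of let-7c-5p and miR-99a-5p lay 236 kb from the nearest peak and that of miR-155-5p 32.9 kb. The noncoding gene MIR99AHG, by its name the host gene of MIR99A, had peaks of 4.07 and 1.85 kb over starts. A distance from a mature sequence therefore does not show whether its host gene had a peak.

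COL18A1, which encodes the basement membrane collagen that gives rise to endostatin, had the third region. At chr21:45404761-45443460, 7 peaks filled 88.9% of 38.7 kb, the highest share among the 5 regions ranked highest on the chromosome. Peaks of 10.9 and 15.05 kb had their midpoints in introns, at chr21:45413551-45424430 and chr21:45426871-45441920, downstream of a 3.02 kb peak at the start. Their GC contents of 60.1% and 60.6% exceeded the 47.7% of the widest URB1 peak and the 48.5% of the widest BACE2 peak.

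SIK1 stood at the end of a row of 3 regions that spanned 144 kb, chr21:43306231-43450020, with 20 peaks and 68.4 kb in peaks. The SIK1 region itself held 9 peaks and 24.98 kb, with a peak of 9.96 kb over the gene (chr21:43414971-43424930) and the 2.35 kb peak over its start, and peaks covered 91.3% of the gene. The other regions of the row overlapped no coding gene. Around LINC01679, 6 peaks summed to 26.5 kb, among them an 18.5 kb peak at chr21:43355421-43373940 that ranked 10 among all peaks. That peak lay 46.0 kb from the nearest annotated start of SIK1, which is internal to the gene and nearer than its main start. Around LINC00322, 5 peaks summed to 16.9 kb and lay 84.7 kb from that internal start. The list does not tie these peaks to a target gene.

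A second row of 3 regions spanned 151 kb at chr21:36352921-36504400, and the widest of its 31 peaks measured 7.31 kb, less than the widest at URB1 or BACE2. Its first region ran through MORC3, a chromatin ATPase, into CHAF1B, a subunit of the chromatin assembly factor CAF-1, with 17 peaks, 29.4 kb and a widest peak of 5.97 kb. CLDN14, a tight junction gene, had 11 peaks with 21.4 kb in its region and 17 peaks on its 116 kb body. Between these lay 3 peaks of 8.71 kb beyond the CHAF1B end.

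The remaining regions past the point were smaller. ADARB1, the gene of the RNA-editing enzyme ADAR2, had a 7.72 kb peak at its start and 17.9 kb in all. The region at the end of TTC3, a ubiquitin ligase gene, summed to 16.1 kb. RCAN1 had 8 peaks and 13.4 kb over 40.6 kb, the largest of which (3.36 kb) covered the internal start with TGACGTCA. PDXK, the vitamin B6 kinase, SLC37A1 and the epidermal kinase gene RIPK4 summed to 11.9, 11.85 and 11.81 kb. Between SPATC1L and LSS, the lanosterol synthase of sterol synthesis, a single peak of 9.17 kb made up most of 10.8 kb. The 1 region between 13 and 31 Mb summed to 9.37 kb and lay beyond the 3′ end of APP, the amyloid precursor. Its distance of 20.2 kb to an APP start was to an internal start, far from the main start of the gene.

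**Figure D3:**
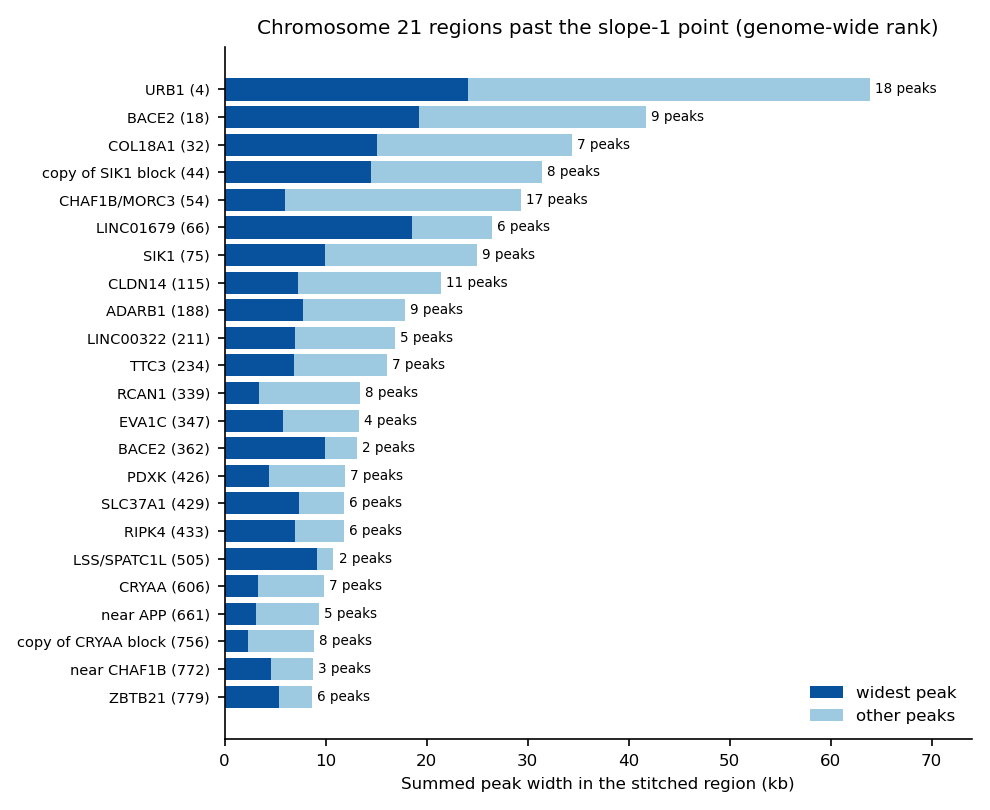
Summed peak width in kb (x axis) of the 23 stitched regions past the slope-1 point, in genome-wide rank order with the rank in brackets; dark bars are the widest peak of a region and light bars its other peaks. URB1 sums to 63.9 kb over 18 peaks, while ZBTB21, the last, sums to 8.67 kb over 6.

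**Figure D4:**
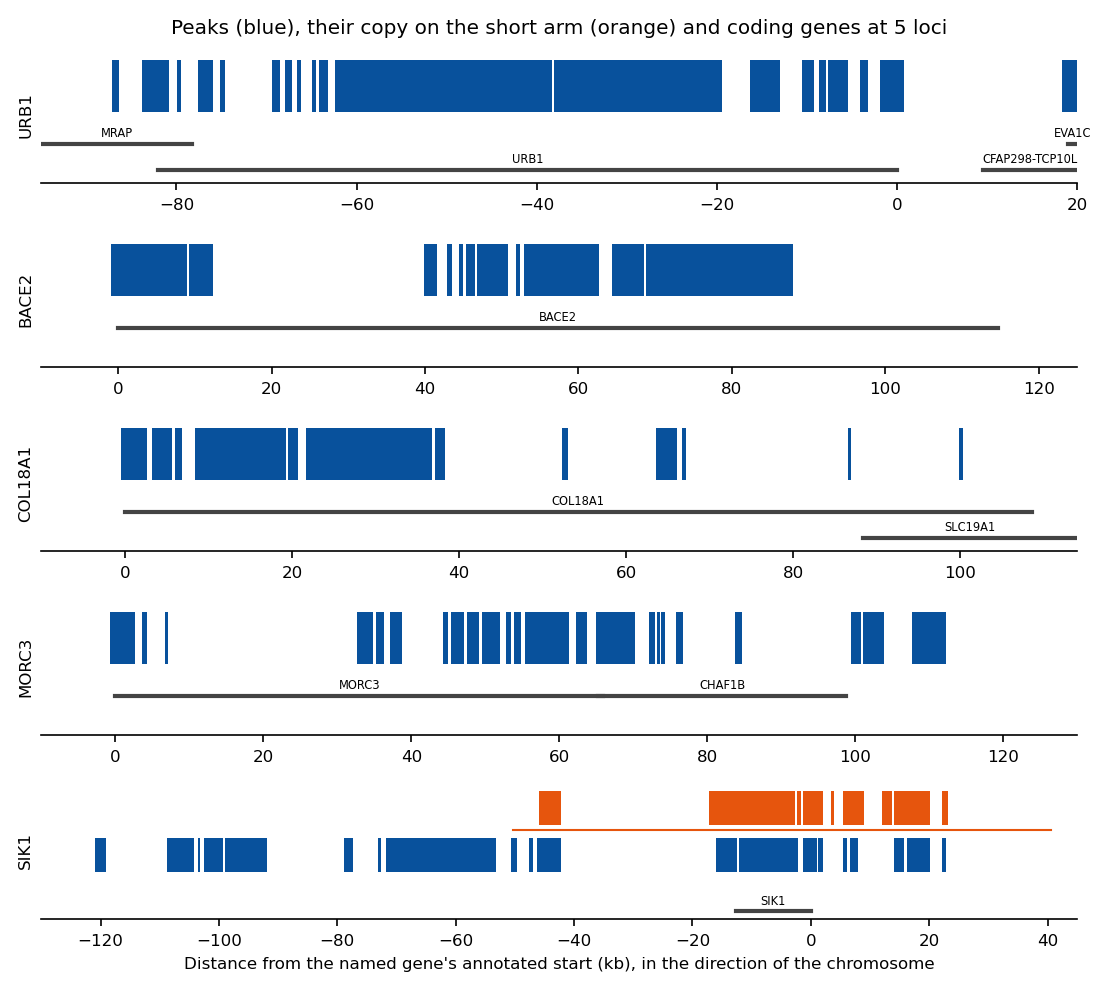
Positions of peaks (blue boxes) at 5 loci by distance in kb from the annotated start of the named gene, with coding genes as grey lines (plus strand above, minus strand below) and, at SIK1, the peaks of the near-identical short-arm block in orange. The 2 widest peaks at URB1 lie in its body, BACE2 has separate start and body regions, and 7 of the 9 copied peaks overlap a SIK1 block peak.

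Several regions counted above lie in sequence that the assembly holds more than once. In 6 blocks of more than 50 kb, the short arm matched the long arm with an aligned identity of 99.8% to 99.98%, and the annotation lists SIK1, CRYAA, CBS, U2AF1, DNMT3L, ICOSLG, PWP2 and KCNE1 among the genes with a copy there. The short-arm copies held 27 peaks and the long-arm originals 26, and 22 and 24 of these overlapped a peak in the other copy. They covered 54.1 and 47.0 kb, of which 42.8 kb was shared (79.0% of the short-arm and 91.1% of the long-arm bases). In the SIK1 block the copy had 9 peaks with 35.2 kb and the original 11 peaks with 30.4 kb. The short-arm region at chr21:6088021-6128320, which ranked 44 in the genome with a widest peak of 14.5 kb, was therefore a copy of the SIK1 region, which ranked 75. The region at CRYAA, a lens crystallin gene, had 7 peaks with 9.81 kb, none of them on the gene or within 3 kb of its start, and its copy 8 peaks with 8.81 kb. Reads from identical copies cannot be told apart, and neither can their peaks be given to 1 of them. Outside the blocks, 22 of the other 24 short-arm peaks fell into 4 families of 4 to 8 peaks whose sequences matched at 100%, and which lay at 4 or 5 places each. Counted peak by peak, 73 of 478 peaks (15.3%) had another copy on the chromosome at 99% identity or more over at least 90% of their length. Without them, 21 of 405 peaks were wider than 5 kb (5.19%, 3.42 to 7.80%).

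Most peaks lay at starts, in a smaller share than elsewhere. Promoter peaks, with any base within 3 kb of a transcript start, were 268 of 478 (56.1%, 51.6 to 60.5%), beside 61.3% (60.8 to 61.9%) on the other chromosomes. Intragenic peaks made up 27.6% (23.8 to 31.8%) against 26.97%, and intergenic peaks 16.3% (13.3 to 19.9%) against 11.7%. Promoter peaks had a median width of 1305 bases and distal peaks of 860, and 19 of the 24 wide peaks were promoter peaks (79.2%), close to the 77.2% of all wide peaks. Of the 210 distal peaks, 101 had their midpoint in an intron of a coding gene and 80 lay outside genes. Median GC content was 56.9% in promoter peaks and 51.3% in distal peaks, beside 40.9% for the chromosome and 47.7% for all distal peaks.

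Among coding genes, 119 of 220 had a promoter peak (54.1%, 47.5 to 60.5%), where 63.4% of all coding genes had one. The 49 keratin-associated protein genes, which encode hair proteins in 2 clusters, had none (upper limit 7.27%). Leaving them out gave 119 of 171 (69.6%, 62.3 to 76.0%). Of the 101 genes without a promoter peak, 95 had no peak at all and 6 had peaks on the body only, among them MRAP, GRIK1, KCNJ6 and SIM2. The widest promoter peak of a gene had a median of 1790 bases. Genes with 4 or more promoter peaks numbered 14, led by CLDN14 with 8 and by PDXK and TTC3 with 7 each.

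The lists of chromatin, mitochondrial, ribosome and metabolic genes are set beside the 63.4% of all coding genes and the 69.6% of the chromosome without keratin-associated genes. All 9 chromatin genes listed had a promoter peak, from 1060 bases at DNMT3L and 2010 at HMGN1 to 5380 at CHAF1B. So did the 7 mitochondrial and oxidative genes, including SOD1, the cytosolic superoxide dismutase (1280 bases), and ATP5PF, a subunit of ATP synthase, which shared a 2690 base peak with GABPA, a transcription factor of mitochondrial genes. In the ribosome and RNA processing list 9 of 11 had one, without PWP2 and RBM11 (81.8%, 52.3 to 94.9%). Metabolic genes had 10 of 11, without CBS (90.9%, 62.3 to 98.4%), so both of these intervals hold the share over all genes. GART of purine synthesis shared a 2730 base peak with the splicing gene SON. PWP2 and CBS, without a peak, and U2AF1 and GATD3, with peaks of 1270 and 610 bases, lie in the copied blocks, where the assignment of reads is uncertain. DNMT3L lies partly in a copied block. Its promoter peak lay 1.195 kb from its start, outside both the gene and the block.

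Each gene of the receptor and signalling lists had a promoter peak, where 63.4% of all coding genes had one. Intervals were 51.0 to 100% for the receptor list and 61.0 to 100% for the signalling list. For the interferon-induced and immune cell list the interval was 8.22 to 64.1%. All 3 intervals hold the share over all coding genes. The 4 cytokine receptor genes of the long arm, IFNAR1, IFNAR2, IFNGR2 and IL10RB, each had 1 promoter peak, of 1810, 1420, 1900 and 1310 bases. All 6 signalling genes had one as well, from 560 bases at TIAM1, an activator of the GTPase Rac, to 3730 at the kinase gene DYRK1A and 7020 at RIPK4. The 1 peak of TIAM1 lay 2.25 kb from an internal start, and its main start had no peak. Of 7 interferon-induced and immune cell genes, the antiviral genes MX1 and MX2 had a promoter peak, whereas ITGB2, ICOSLG, UBASH3A, SAMSN1 and AIRE, which are used in leukocytes or thymus, had no peak. ICOSLG lies in a copied block, where the assignment of reads is uncertain.

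Of 12 transcription factors, 9 had a promoter peak (75%, 46.8 to 91.1%), an interval that holds the share over all coding genes. RUNX1 had 4 of them and 9 peaks on its body, with a widest promoter peak of 2640 bases, and its best region ranked 2926, outside the point. OLIG1, a factor of the glial lineage, had 3130 bases, ETS2 2010 and ZBTB21, a zinc finger repressor, 5380. OLIG2 and ERG had no peak and SIM2 had 1 peak on its body.

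Lists of lineage genes held genes with and without a promoter peak, and they were small. Intervals were 23.1 to 88.2% for the melanocyte, neural crest and cyclic AMP list and 15.82 to 74.95% for the neuronal list. For the claudins and the transmembrane serine proteases they were 6.15 to 79.2%. These intervals and that of the matrix list hold the 63.4% of all coding genes. No difference from all coding genes was therefore shown for these lists. Among the melanocyte, neural crest and cyclic AMP genes, BACE2, SIK1 and S100B had promoter peaks and MRAP and the phosphodiesterase gene PDE9A did not, and S100B had a single peak of 1010 bases. In the matrix list, ADAMTS1, a matrix protease, had a peak of 4540 bases and COL6A1 1 of 790, whereas COL6A2 and ADAMTS5 had none. Neuronal genes had 3 of 7, APP with 4 promoter peaks, NCAM2 and SYNJ1. CLDN14 had promoter peaks and its relatives CLDN8 and CLDN17 did not. No promoter peak was called at the 3 potassium channel genes, at the 3 trefoil factor genes of gut mucosa or at 3 pericentromeric genes. The upper limit for 0 of 3 genes was 56.1%, and the lists were chosen with earlier results known. Of 3 transmembrane serine proteases 1, TMPRSS2, had a promoter peak. It lay at an internal start, and the main start of TMPRSS2 had no peak. The potassium channel gene KCNE1 lies partly in a copied block, where the assignment of reads is uncertain.

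**Figure D5:**
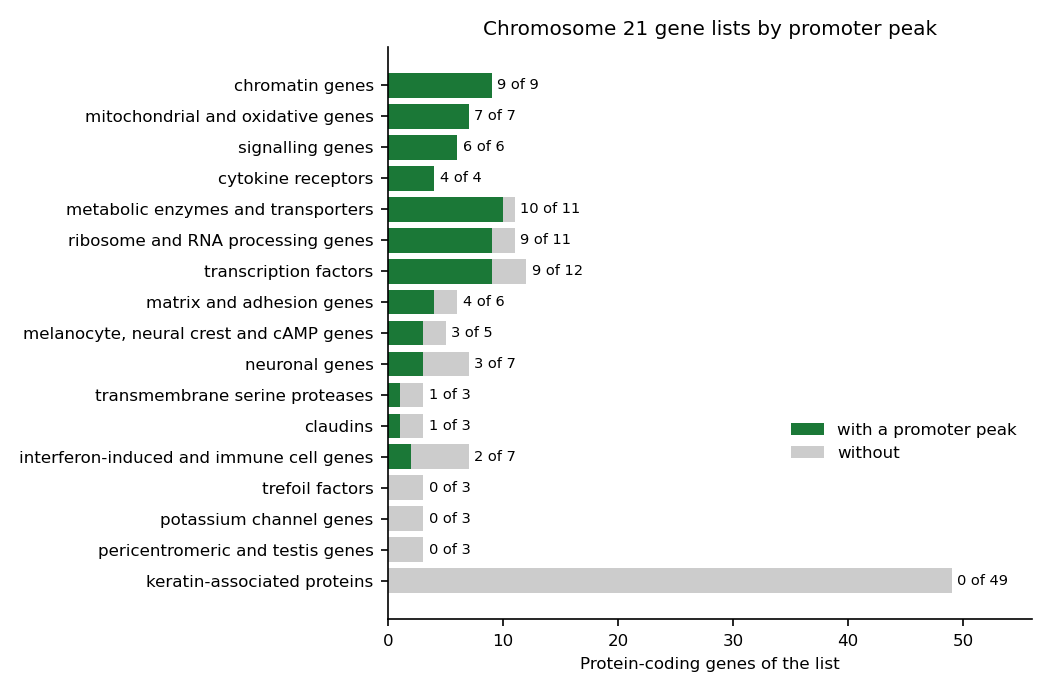
Number of protein-coding genes (x axis) with a promoter peak (green) and without (grey) in 17 lists of chromosome 21 genes grouped by known function. Chromatin genes have 9 of 9 and keratin-associated proteins 0 of 49, against 119 of all 220 coding genes of the chromosome.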

How the data were processed

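The series measured H3K27ac by ChIP-seq in SU-CCS-1 with 3 ChIP and 3 input samples, grouped by their titles. Reads were mapped to hg38 by the authors with BWA 0.7.10-r789, removed duplicates with samtools, called broad peaks with MACS2 2.2.6 against input and removed unreliable regions listed by ENCODE. The deposited file used here was 1 merged list of peak positions, a chromosome, start, end and name per peak. It gave no score, count or depth, and whether replicates were pooled before calling is not given in the sources used here. The list held no value per sample, so no test was run here and the precision per sample is unknown.

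Starts and genes came from GENCODE 44 and promoter sequences and microRNAs from RefSeq. A promoter peak had a base within 3 kb of any transcript start. Peaks at most 12500 bases apart were stitched and ranked by summed width. Copies on chromosome 21 were found with minimap2 2.31-r1302. Python 3.11.15, numpy 2.4.6, scipy 1.17.1 and pysam 0.24.0 were used. The stitching, slope and motif code was checked on small constructed cases with known answers, and the start-window code also on random intervals. The alternatives changed the start window, peak filter, gap, ranking and motif window. Genes named were those of 17 lists, the 15 widest peaks and top regions, the 5 longest stretches without peaks, copied pairs and genes nearest TGACGTCA; the genes of smaller regions, of shared promoters and microRNAs were added after their values were seen. The members and lists were chosen with earlier results of these data known.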

Additional observations from a re-analysis of the deposited data

How the results depend on the processing

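Of 28 alternatives, 18 left the value within 1.5 times of the count reported or inside its Wilson interval. The promoter share was 44.8% with a 1 kb window, 32.0% with starts of coding transcripts only and 66.5% among peaks at or above the median width. Raising the wide limit to 10 kb left 7 peaks. Joining peaks within 1 kb first raised the wide share to 35 of 339 (10.3%), beside 5.49% on the other chromosomes. Leaving out peaks wholly within 2.5 kb of a start left 122 stitched regions. In the central 200 bases, TGACGTCA stood in 0.628% of peaks (0.40% in the genome), TGAGTCA in 3.14% (2.70%), TGANNTCA in 8.58% (8.63%) and TGA or TCA runs in 0.837% (0.923%). TGACGTCA stood in 4 of 210 distal peaks, or 1.90% (0.981%). A shorter window holds fewer letters by construction. The regions past the slope-1 point numbered 22 by span, 17 without start peaks and 20 with a gap of 5 kb, and 17, 17 and 20 of these overlapped the 23 reported. Leaving out the first 13 Mb, chosen after seeing the data, gave 22 wide peaks and 21 regions.

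No paired analysis was possible because the list has no values per replicate. Leaving out a replicate gave no value for the same reason. Peak heights, read depth and copy number of the chromosome in this line were not analysed here. Widths come from broad calling, which joins neighbouring stretches, so a width also depends on signal and on the cutoff.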
